A study of Mus musculus with 11 samples.

Results

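Integrins are surface receptors that hold cells to the extracellular matrix, and 10 of their subunits that bind collagen, laminin, fibronectin or vitronectin were followed here in mouse pancreatic tumors. The members were Itga1, Itga2, Itga3, Itga5, Itga6, Itga11, Itgav, Itgb1, Itgb4 and Itgb5. They were chosen by name as the collagen, laminin and fibronectin receptors of stroma and carcinoma, by a rule that uses no measured value, though with earlier results of these data known. They make up 10 of the 54232 genes in the count table, and 10 of 10 passed the filter on low counts that left 16536 genes for testing.

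RNA of whole orthotopic tumors was sequenced in 6 hosts lacking protein kinase N2 (PKN2, gene Pkn2; KO) and 5 wild-type hosts (WT), to ask how loss of this kinase from the host changes the tumor and its matrix. Per the labels all animals were C57BL/6 and received 1000 WTPKN2 TB32048 cells, a line from a mouse pancreatic carcinoma, in the pancreas. Per the study's methods every adult host carried 1 RosaCreERT2 allele and got the same tamoxifen, KO hosts were Pkn2 fl/fl and WT hosts Pkn2 +/+, and the tumors were from female animals. The Rosa26 promoter drives the Cre in all host cells rather than in fibroblasts alone, a single carcinoma line was used, and the carcinoma cells kept an intact Pkn2. Each tumor was from its own animal.

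An integrin is a pair of 1 alpha and 1 beta subunit. In carcinomas the laminin receptors α3β1, α6β1 and α6β4 sit mainly on epithelial cells, which they anchor to the basement membrane, whereas α11β1 and α1β1 are collagen receptors of fibroblasts and other mesenchymal cells. α2β1 binds collagen on epithelial cells and fibroblasts, α5β1 is the main fibronectin receptor, and the αv integrins bind vitronectin, fibronectin and latent TGF-β through a short Arg-Gly-Asp (RGD) motif. Binding of matrix links most beta tails through talin and kindlin to actin, and it is through this link that contractile cells sense and pull on the matrix.

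KO A to F and WT A to E name single tumors. Levels are CPM, read counts scaled to a common library size with edgeR's trimmed mean of M-values, and a fold change is KO over WT on the log2 scale from edgeR's quasi-likelihood test, whose p-values were adjusted over 16536 genes by the Benjamini-Hochberg method. In these bulk samples, fewer cells of a type and less RNA per cell cannot be told apart.

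Total counts ran from 16294128 to 31121422 per tumor, and 3 counts corresponded to 0.0884 to 0.226 CPM, far under the lowest member value of 2.42 CPM. Member counts ran from 32 to 30189 reads in a tumor. Pkn2 itself was at 81.8 to 112 CPM in KO and 56.9 to 141 CPM in WT, so its total did not separate the groups, in tumors whose carcinoma cells keep the gene.

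The most and the least abundant member per length were Itgb1 and Itga11, and their promoters are shown to set a widely used gene beside a restricted one. Of the 10 members, 8 had a promoter in the RefSeq table of GRCm38.p6, with 9 windows in all since Itga3 had 2, each from 250 bases before to 50 after the start. Capitals mark matches, on either strand, to a GC box (GGGCGG) or a TEAD-type motif (CATTCC, here read as its reverse complement). The Itgb1 window is chr8:128685404-128685703 on the plus strand and the Itga11 window is chr9:62677605-62677904 on the plus strand.
Itgb1: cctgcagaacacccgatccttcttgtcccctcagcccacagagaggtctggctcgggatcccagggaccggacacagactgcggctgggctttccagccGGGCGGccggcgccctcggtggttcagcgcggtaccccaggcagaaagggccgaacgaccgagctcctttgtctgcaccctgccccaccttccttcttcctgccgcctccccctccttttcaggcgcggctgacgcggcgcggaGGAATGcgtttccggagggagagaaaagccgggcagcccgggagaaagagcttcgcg
Itga11: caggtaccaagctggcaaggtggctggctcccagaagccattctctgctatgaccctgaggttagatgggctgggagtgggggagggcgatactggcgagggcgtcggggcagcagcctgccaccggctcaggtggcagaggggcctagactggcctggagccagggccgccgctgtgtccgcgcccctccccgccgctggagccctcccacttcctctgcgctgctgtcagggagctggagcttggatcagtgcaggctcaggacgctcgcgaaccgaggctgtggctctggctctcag

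The Itgb1 window held 1 GC box and 1 TEAD-type match, while the Itga11 window held no match to any of the 5 motifs searched. Over the 32851 promoters of the table, 35.7% held the GC box, 14.7% the TEAD-type motif, 37.4% CCAAT, 13.6% TATAAA and 7.81% the AP-1 motif TGANTCA. GC boxes were also found for Itga2 (1), Itga3 (3 and 1 in its 2 windows), Itga5 (2), Itgav (1) and Itgb5 (3), and none was found for Itga1. A CCAAT and an AP-1 match were each found once, both in the second Itga3 window. TATAAA was found in none of the 9 windows. These are letter matches and not measured sites.

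Itgb1 was the most abundant member and Itga11 the rarest. Per kilobase of exon, Itgb1 had the highest mean over the 11 tumors at 184 CPM per kb, followed by Itgb5 at 63.7, Itga3 at 50.3, Itga6 at 24.7, Itga5 at 22.4, Itga2 at 18.9, Itgav at 13.7, Itgb4 at 12.3, Itga1 at 4.71 and Itga11 at 1.21. Itgb1, the partner of most alpha subunits, exceeded the next member in 11 of 11 tumors. Neighbors in this order did not always separate. Itga6 was above Itga5 in only 5 of 11 tumors and Itgav above Itgb4 in 6 of 11, so these pairs had no fixed order on this scale. Per kilobase of all exons, Itgb5 was above Itga3 in 10 of 11 and Itga3 above Itga6 in 11 of 11. The order of neighbors depended on the length used. In CPM not divided by length, Itga6 was above Itga5 in every tumor. Itga3 was then below Itga6 in KO A (223 and 278 CPM) and WT D (253 and 324.5 CPM). With the length of the transcript with the longest coding sequence in place of all exons, Itga6 reached 53.6 CPM per kb with its rank unchanged, and Itgav moved above Itga2.

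None of the 10 members differed between KO and WT at an adjusted p under 0.05 by edgeR, against 3 of 16536 genes or 0.0181% of those tested. At an unadjusted p under 0.05, 1 member was higher in KO (Itgb1) beside 8.57% of tested genes, and 0 were lower beside 15.5%. By DESeq2, 0 members passed the adjusted threshold, although DESeq2 called 8.06% of the genes it adjusted. At an unadjusted p under 0.05 by DESeq2, 1 member (Itgb1) passed, beside 16.5% of the genes it tested, in either direction. The KO and WT ranges overlapped for 10 of 10 members, and 3.6% of tested genes had ranges that did not. Fold changes were positive for 8 members and negative for 2, with a median of 0.22 on the log2 scale. The median was -0.03 over all tested genes, of which 48% were positive, and 0.11 over the 9099 tested genes at least as long as the shortest member, of which 61.1% were positive.

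**Figure D1:**
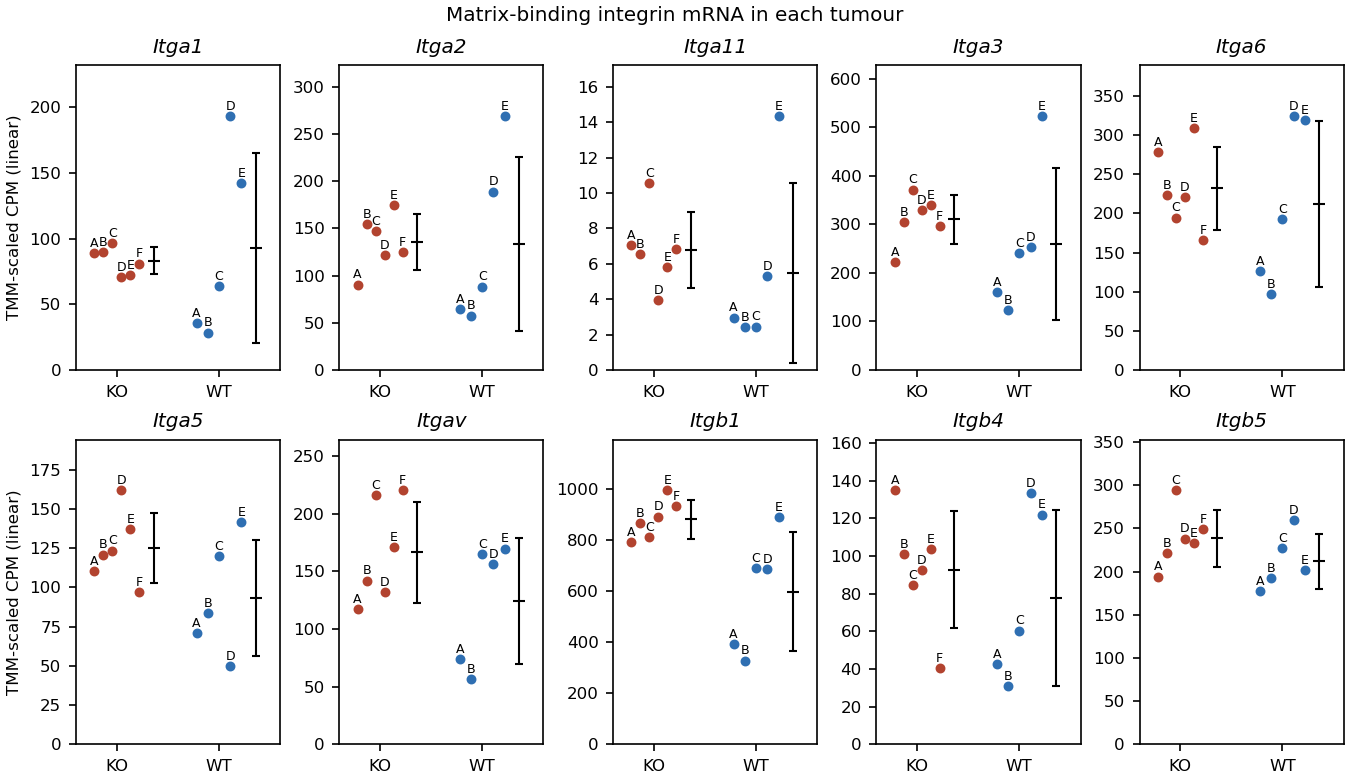
Level of each integrin subunit in each tumor, as scaled CPM on a linear axis from 0, with KO tumors in red, WT tumors in blue and tumor letters above the points. Black bars give the mean and SD (KO n = 6, WT n = 5). WT A and WT B are the 2 lowest tumors in 7 of the 10 panels. For Itga1 and Itga2 the KO tumors fall between 3 lower and 2 higher WT tumors, and for Itga5, Itgav, Itgb1, Itgb4 and Itgb5 a KO tumor is the highest.

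Among the collagen receptors, the fibroblast subunit Itga11 was the rarest. It measured 7.05, 6.54, 10.5, 3.93, 5.83 and 6.81 CPM in KO A to F and 2.95, 2.42, 2.44, 5.31 and 14.4 CPM in WT A to E. Its highest and its 3 lowest values were thus all in WT tumors. The means were 6.78 ± 2.16 (SD, n = 6) in KO and 5.49 ± 5.09 (SD, n = 5) in WT, and the log2 fold change was 0.26 with an SE of 0.46 (edgeR adjusted p = 0.751).

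Itga1, the collagen and laminin receptor of mesenchymal cells and vessels, stood at 88.9, 89.7, 96.5, 70.8, 72.2 and 81.0 CPM in KO A to F. In WT A to E it stood at 35.4, 28.5, 63.9, 193 and 142 CPM. The KO values form a tight band that falls in the gap between 3 low and 2 high WT tumors. The fold change was -0.18 (SE 0.40, edgeR adjusted p = 0.809), with an SD of 10.3 CPM in KO and 72.2 CPM in WT. A predicted gene on the same strand, Gm49395, shares 685 of its exon bases (3.68%), so a small part of its reads is uncertain.

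Itga2, whose product binds collagen on epithelia, platelets and some fibroblasts, gave 90.5, 154, 147, 122, 175 and 125 CPM in KO A to F. WT A to E gave 64.4, 57.6, 88.2, 189 and 269 CPM. Here too the WT tumors lay on both sides of the KO tumors, and the fold change was -0.01 (SE 0.36, edgeR adjusted p = 0.985). Summed CPM of 5 platelet markers, of which Gp1bb had no count in any tumor, ran from 19.2 to 80.1 in KO and from 21.9 to 184 in WT. This sum was mostly Pf4, at 14.4 to 71.6 CPM in KO and 20.8 to 180 CPM in WT, while Gp9 stayed under 1 CPM in every tumor. The sum is therefore a weak measure of platelets, and their part in the Itga2 level was not tested.

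Of the laminin receptors, Itga3 was the most abundant alpha subunit. Its values were 223, 305, 372, 328, 339 and 296 CPM in KO A to F and 161, 122, 241, 253 and 523 CPM in WT A to E. WT A and B were below and WT E above all KO tumors, giving a fold change of 0.22 (SE 0.30, edgeR adjusted p = 0.681).

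Itga6 measured 278, 223, 195, 221, 309 and 166 CPM in KO A to F and 126, 96.8, 192, 324 and 320 CPM in WT A to E. Itgb4, its hemidesmosomal partner, measured 135, 101, 84.3, 92.4, 104 and 40.3 CPM in KO A to F and 42.4, 30.7, 60.3, 133 and 122 CPM in WT A to E. KO F was the lowest KO tumor for both, and WT B the lowest of all. The fold changes were 0.10 for Itga6 (SE 0.29, edgeR adjusted p = 0.867) and 0.22 for Itgb4 (SE 0.37, edgeR adjusted p = 0.739). An antisense gene, B230344G16Rik, overlaps exons of Itgb4. The libraries keep strand, but the strand setting of the counting is not given in the sources used here.

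The fibronectin receptor subunit Itga5 followed another course. It measured 110, 121, 124, 162, 137 and 96.8 CPM in KO A to F and 70.8, 83.8, 120, 50 and 142 CPM in WT A to E. Its lowest tumor was WT D, the tumor in which Itga1, Itga6 and Itgb5 were at their highest WT level. The fold change was 0.37 (SE 0.25, edgeR adjusted p = 0.365).

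Itgav measured 117, 142, 216, 132, 171 and 220 CPM in KO A to F and 74.1, 56.7, 165, 156 and 170 CPM in WT A to E. WT A and B stood below all other tumors, and the remaining WT tumors lay within the KO range. The fold change was 0.39 (SE 0.29, edgeR adjusted p = 0.421). Exons of an antisense gene, Gm13684, overlap those of Itgav. Itgb5, which pairs with αv to bind vitronectin, was the steadiest member at 194, 221, 294, 238, 233 and 249 CPM in KO A to F and 178, 192, 227, 260 and 202 CPM in WT A to E. Its fold change was 0.12 (SE 0.15, edgeR adjusted p = 0.641), the member with the smallest SE.

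Itgb1 was the member with the smallest p. Its values were 791, 865, 811, 891, 994 and 931 CPM in KO A to F and 392, 327, 688, 685 and 890 CPM in WT A to E. Of the WT tumors, 4 lay below the lowest KO tumor, and only WT E lay within the KO range. The means were 880 ± 75.8 (SD, n = 6) in KO and 596 ± 233 (SD, n = 5) in WT, and the fold change was 0.52 (SE 0.23, edgeR unadjusted p = 0.0438, adjusted p = 0.196). The value fell to 0.41 without WT A (adjusted p = 0.344), to 0.39 without WT B (adjusted p = 0.369) and to 0.15 without WT A, B and C (adjusted p = 0.613), all by edgeR.

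The spread within WT was itself large. The SD of log2 CPM was larger in WT than in KO for 10 of 10 members, beside 85.3% of tested genes, and the median ratio of the SDs was 2.38 over the members and 1.94 over all tested genes. WT A and WT B were the 2 lowest of the 11 tumors for 7 of 10 members, beside 17.5% of tested genes and 28.7% of the 9099 tested genes that are at least as long as the shortest member. Member exons total 3553 to 18599 bases, and the median of tested genes is 3909. In WT A and B the level of a gene relative to its mean over tumors fell with its exon length (Spearman coefficients over genes of -0.496 and -0.448), in WT C the coefficient was -0.171, in WT D and E it was 0.269 and 0.372, and in KO it ran from 0.101 to 0.328. Ribosomal RNA made up 1.31%, 6.39% and 1.40% of the counts in WT A, B and C, 0.765% and 0.241% in WT D and E, and 0.308% to 0.739% in KO. The part of exon length and ribosomal RNA share in the member values was not tested beyond fits with each as a term. No RNA integrity value is given in the sources used here. With ribosomal RNA share as a term the Itgb1 fold change was 0.23 (edgeR adjusted p = 0.782), and with the length trend as an offset it was 0.52 (edgeR adjusted p = 0.187). Itgb1 has 4081 exon bases, close to the median of tested genes.

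**Figure D2:**
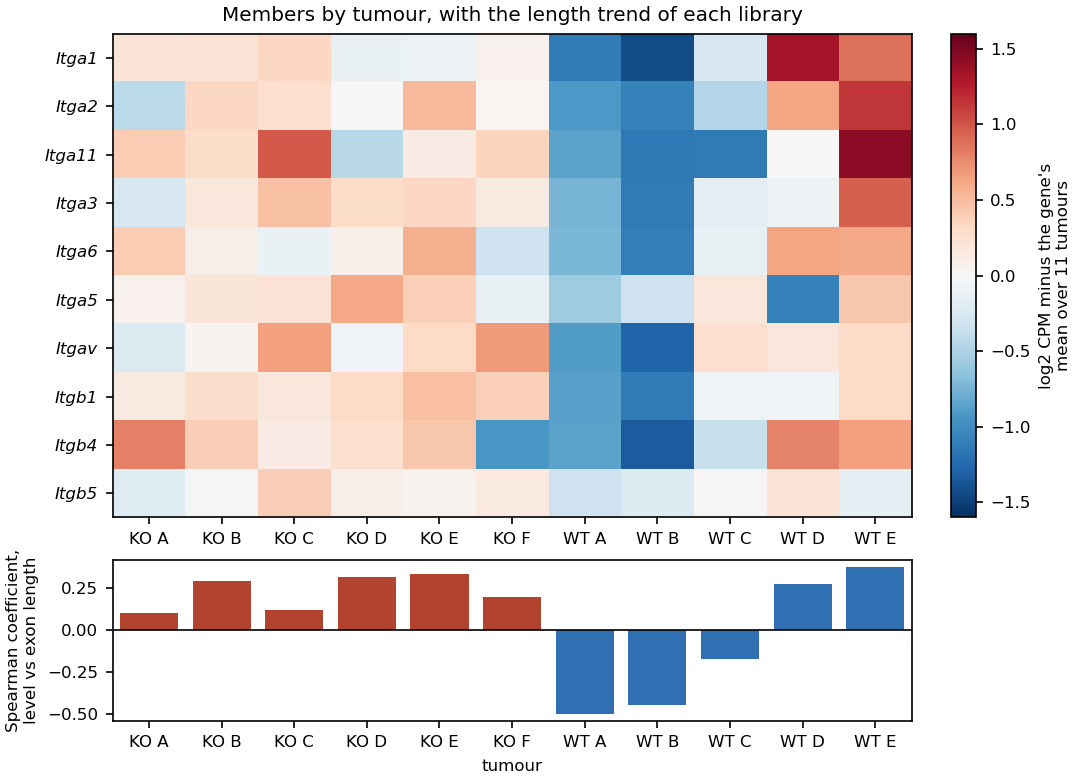
Upper panel, log2 CPM of each member in each tumor minus that gene's mean over 11 tumors. Lower panel, the Spearman coefficient over genes between a gene's level relative to its mean and its exon length in the same tumors (KO red, WT blue). The blue columns of WT A and WT B stand over negative coefficients of -0.496 and -0.448.

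The direction of the comparison depended on which WT tumors were in it. Without WT E, fold changes were positive for 10 of 10 members with a median of 0.48, and 4 members were higher in KO at an unadjusted p under 0.05, beside 13% of the genes then tested. These were Itga11 (log2 fold change 1.00, edgeR adjusted p = 0.0639), Itgb1 (0.71, edgeR adjusted p = 0.0563), Itga3 (0.63, edgeR adjusted p = 0.0714) and Itga5 (0.56, edgeR adjusted p = 0.125). Without WT A, B and C, the tumors with the highest ribosomal RNA shares, the median was -0.40 and 3 members were lower in KO at an unadjusted p under 0.05, beside 9.01% of the genes then tested. These were Itga1 (-1.02, edgeR adjusted p = 0.065), Itga2 (-0.77, edgeR adjusted p = 0.155) and Itga6 (-0.48, edgeR adjusted p = 0.285), and only WT D and E then stood for WT. No member passed the adjusted threshold in either fit.

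**Figure D3:**
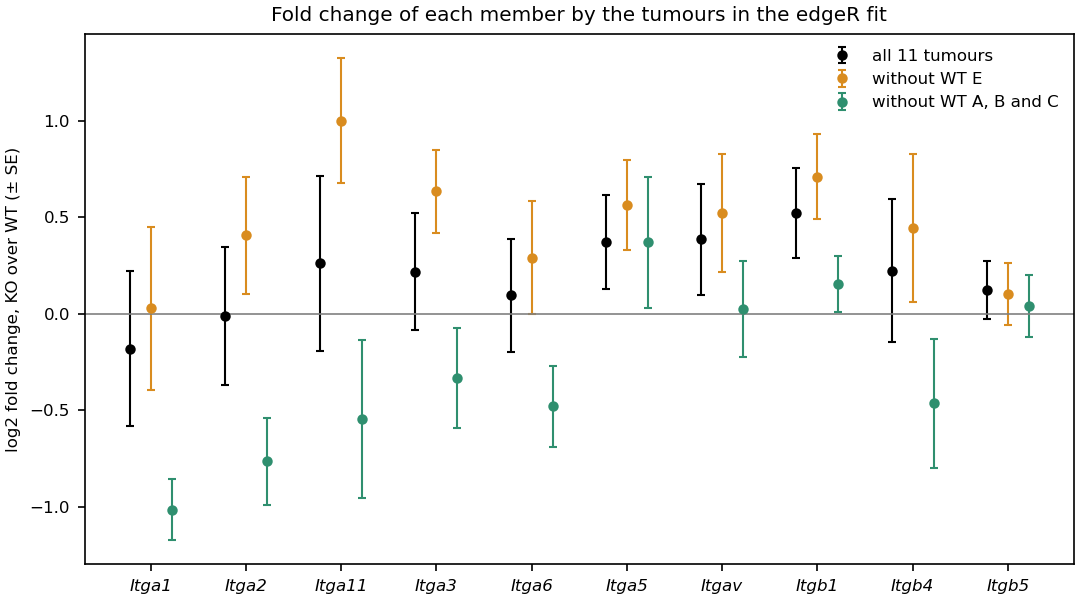
Log2 fold change (KO over WT) with SE for each member, fitted with all 11 tumors (black), without WT E (orange) and without WT A, B and C (green). For Itga11 the 3 values are 0.26, 1.00 and -0.55, while Itga5, Itgav, Itgb1 and Itgb5 stay at or above 0 in these 3 fits.

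The make-up of the alpha subunits was compared within each tumor, as the share of each in the summed CPM per kb of the 7 alpha members, which removes a tumor's overall integrin level. Itga3 took 37.2% ± 3.07 (SD, n = 6) in KO and 35.8% ± 4.11 (SD, n = 5) in WT, Itga6 17.8% ± 4.47 and 18.9% ± 3.65, Itga2 12.9% ± 1.80 and 14.1% ± 3.53, and Itgav 10.7% ± 2.75 and 9.52% ± 2.17. Itga1 took 3.11% ± 0.579 in KO and 3.71% ± 2.04 in WT, and Itga11 took 0.915% ± 0.285 and 0.779% ± 0.314. Each of these KO and WT ranges overlapped. Itga5 took 18.4%, 17.1%, 15.7%, 22.1%, 16.7% and 14.7% in KO A to F and 19.2%, 26.3%, 20.3%, 7.10% and 13.1% in WT A to E. The WT tumors therefore held both the highest and the lowest Itga5 share, and WT D, with the lowest, held the highest Itga1 share at 7.28%. These shares rest on the exon lengths used, which the closing paragraphs vary. They also keep the length trend of each library. Of the 7 alpha members, Itga5 has the fewest exon bases (4933) and Itga1 the most (18599). The part of that trend in the shares was not tested.

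**Figure D4:**
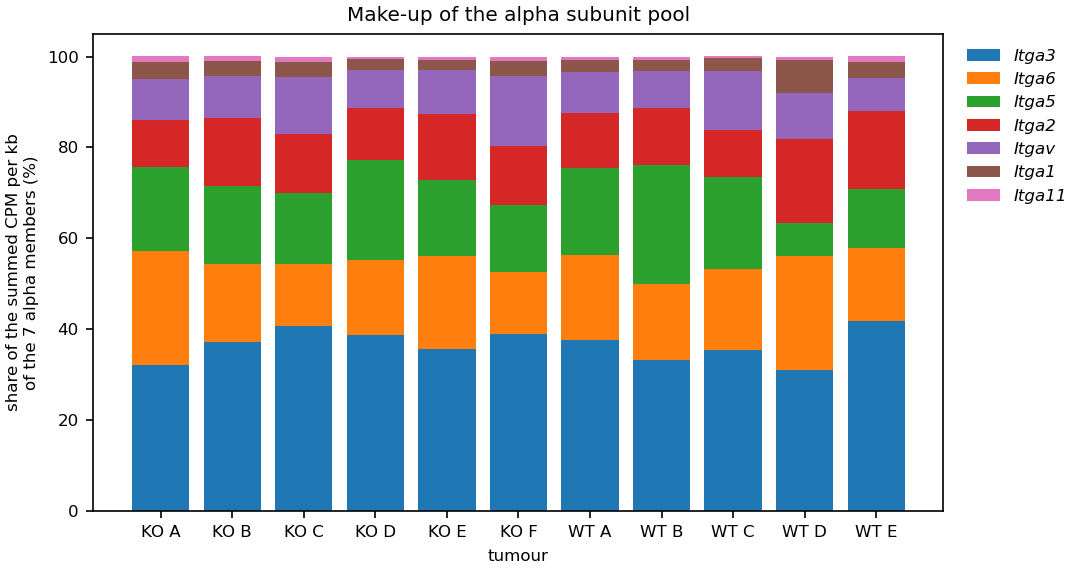
Share of each alpha subunit, in percent, in the summed CPM per kb of exon of the 7 alpha members, 1 bar per tumor. The Itga5 segment is widest in WT B (26.3%) and narrowest in WT D (7.10%), while Itga3 holds 31% to 41.7% in all tumors.

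Ratios of partners overlapped between the groups as well. Itgb4 per Itga6 was 0.625, 0.583, 0.558, 0.538, 0.432 and 0.312 in KO A to F and 0.433, 0.408, 0.403, 0.529 and 0.491 in WT A to E, so the KO tumors spanned a wider range than the WT tumors. Itgb5 per Itgav was 4.47 ± 0.730 (SD, n = 6) in KO and 6.06 ± 2.73 (SD, n = 5) in WT, with the highest values in WT B (10.3) and WT A (7.25). Itgb5 has 3553 exon bases and Itgav 10744, and WT B and WT A had the most negative length trends (-0.448 and -0.496). The part of that trend in this ratio was not tested. Itgb1 per alpha pool was 1.49 ± 0.155 in KO and 1.22 ± 0.154 in WT, with ranges of 1.25 to 1.71 and 0.993 to 1.41. Itga5 per Itgb1 was 0.118 ± 0.0208 and 0.140 ± 0.0540, Itga11 per Itga2 was 0.0723 ± 0.0270 and 0.0547 ± 0.0157, and Itga3 per Itga6 was 2.22 ± 0.658 and 1.96 ± 0.481. No test was run on these ratios.

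Partners differed in how closely they tracked each other over the 11 tumors. These correlations are descriptions over libraries that differ in depth, ribosomal RNA share and length trend, which act on many genes at once, and no p is given. Itga6 and Itgb4 were the closest of the 45 pairs of members, with Pearson's r of 0.939, a Spearman coefficient of 0.936 and r of 0.869 without the 2 tumors farthest from the Itga6 median (WT A and B). Of the 14890 tested genes with a mean of at least 1 CPM, 0.121% were more like Itgb4 than Itga6 was. For Itgav and Itgb5 r was 0.768, and 0.289% of genes were more like Itgb5. Toward Itgb1, r was 0.876 for Itgav, 0.875 for Itga3, 0.773 for Itga6, 0.764 for Itga2, 0.706 for Itga1, 0.671 for Itga11 and 0.580 for Itga5, and 6.02% to 29.1% of genes were more like Itgb1 than these were. Without the 2 farthest tumors, again WT A and B, the r of Itga6 with Itgb1 was -0.0189 and that of Itgav with Itgb1 was 0.193, so both rested on those tumors. Without the same tumors the r of Itga3 with Itgb1 fell to 0.56. For Itga1, Itga2, Itga5 and Itga11, each without its own 2 farthest tumors, r with Itgb1 was 0.771, 0.681, 0.687 and 0.561. The Spearman coefficient of Itga1 with Itgb1 was only 0.273. The least alike pair was Itga1 and Itga5, at an r of 0.00797.

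For 9 of the 10 members, the gene most like each was Med14 (r = 0.986) for Itgb1, Cast (0.983) for Itgb4, Ehd3 (0.964) for Itga11, Hspa4l for both Itga2 (0.964) and Itga3 (0.962), Rtn1 (0.964) for Itgav, Oxsm (0.960) for Itga1, Parvb (0.955) for Itga5 and Cnn3 (0.897) for Itgb5. Parvb encodes a parvin, an actin-linked protein of integrin adhesions.

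Markers of the cell types that carry these receptors also varied. All 10 epithelial and all 10 fibroblast markers were measured above the filter. Summed CPM of the epithelial markers ran from 2754 to 5625 in KO and from 2802 to 9348 in WT, and fold changes were negative for 10 of 10, with Krt19 at -0.92 (edgeR adjusted p = 0.128), Epcam at -1.62 (edgeR adjusted p = 0.195) and Krt18 at -0.54 (edgeR adjusted p = 0.205). Those of the fibroblast markers ran from 3225 to 6523 in KO and from 1906 to 6659 in WT, with 8 of 10 fold changes positive. Endothelial sums ran from 198 to 276 in KO and from 114 to 284 in WT, those of smooth muscle and pericytes from 145 to 175 and from 87.4 to 244, those of macrophages from 1674 to 2975 and from 1255 to 1990, and those of 7 acinar markers from 7.48 to 627 and from 13.1 to 1681. Over the tumors, r of the members with the mean epithelial marker lay between -0.105 and 0.228, including 0.138 for Itga6 and 0.0357 for Itgb4. That mean is of log2 CPM with each marker weighted alike, and the markers did not move together. Epcam ran from 3.17 CPM in WT B to 283 in WT A, and Cdh1 from 87.6 in WT B to 607 in WT D. This r therefore does not show whether a member followed the epithelial cells. With the mean endothelial marker, r of the members lay between 0.433 and 0.909, and with that of fibroblasts between -0.0433 and 0.640. Itga5 stood at 0.958 with the mean of 6 smooth muscle and pericyte markers. These 6 did not move together either, with 4 positive and 2 negative fold changes. In WT A, Des was at its highest (75.5 CPM) and Notch3 at its lowest (2.78 CPM), and Cnn1 ran from 0.479 in WT D to 24.6 in WT B. This r therefore does not show whether Itga5 followed smooth muscle cells or pericytes. The part of cell composition in the member values was not tested.

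Other integrin subunits were read beside the members. Of 9 further integrin genes, 7 had positive fold changes, with a median of 0.64, and 0 passed the adjusted threshold. Itga8, the nephronectin receptor subunit of smooth muscle and mesenchyme, was at 1.79, 2.36, 0.952, 1.86, 2.52 and 2.96 CPM in KO A to F and 0.641, 0.528, 0.879, 0.279 and 1.18 CPM in WT A to E, a fold change of 1.49 on the log2 scale (SE 0.41, edgeR adjusted p = 0.0928). Itga9, which binds tenascin-C, had a fold change of 0.68 (SE 0.25, edgeR adjusted p = 0.133). Itga7, a laminin receptor subunit of muscle cells, had one of 0.88 (SE 0.46, edgeR adjusted p = 0.251).

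The ligands were read from lists of 10 collagens, 10 laminin chains and 10 RGD-type proteins, and 0 of these 30 genes passed the adjusted threshold. Fold changes were positive for 10 of 10 collagens (median 0.72), 8 of 10 laminin chains (0.35) and 8 of 10 RGD-type ligands (0.46). They were positive for 48% of all tested genes and for 61.1% of those at least as long as the shortest member. At an unadjusted p under 0.05, 3, 2 and 2 of them were higher and 0 lower, beside 8.57% and 15.5% of all tested genes. The collagens with the smallest p were Col6a2 (0.90, edgeR adjusted p = 0.166), Col6a1 (0.84, edgeR adjusted p = 0.187) and Col5a2 (0.72, edgeR adjusted p = 0.197), chains of the beaded and the fibril-forming collagens. Col6a2 measured 152 to 340 CPM in KO and 51.0 to 254 CPM in WT. Of the laminin chains these were Lamb2 (0.67, edgeR adjusted p = 0.158), Lamc1 (0.80, edgeR adjusted p = 0.208) and Lama1 (0.79, edgeR adjusted p = 0.274). Of the RGD-type ligands they were Tnc, encoding tenascin-C (1.08, edgeR adjusted p = 0.126), Fn1, encoding fibronectin (0.77, edgeR adjusted p = 0.198), and Nid1, encoding the basement membrane linker nidogen (0.62, edgeR adjusted p = 0.274). Fn1 measured 1737 to 2825 CPM in KO and 391 to 2146 CPM in WT. WT A and B were the 2 lowest tumors for Col6a2, Col6a1, Col5a2, Lamb2, Lamc1 and Nid1, but not for Lama1, Tnc or Fn1. The part of ribosomal RNA share and length trend in these ligand values was not tested.

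On the inner side of the membrane, 16 of 19 adhesion complex genes had positive fold changes (median 0.31). Such fold changes were found for 48% of all tested genes and 61.1% of those at least as long as the shortest member. At an unadjusted p under 0.05 by edgeR, 5 were higher in KO and 0 lower, beside 8.57% and 15.5% of all tested genes. Of the 19, 0 passed the adjusted threshold. Flna, the actin cross-linker filamin A, measured 1037, 935, 964, 1161, 932 and 910 CPM in KO A to F and 318, 331, 561, 657 and 907 CPM in WT A to E, without overlap (log2 fold change 0.80, SE 0.25, edgeR adjusted p = 0.11). Lims1, which encodes the integrin-linked kinase partner PINCH1, also did not overlap, at 119.5 to 163 CPM in KO and 86.4 to 119.3 CPM in WT (0.38, SE 0.13, edgeR adjusted p = 0.125). Its lowest KO tumor (KO F) and highest WT tumor (WT E) were thus nearly equal. Flna and Lims1 were the only 2 of the 19 without overlap, beside the 3.6% of all tested genes. Pxn, the adaptor paxillin, had a fold change of 0.51 (SE 0.16, edgeR adjusted p = 0.112).

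Of 6 partners of α6β4 in hemidesmosomes, 3 were tested. Cd151, the tetraspanin that joins laminin-binding integrins, had a fold change of 0.43 (SE 0.20, edgeR adjusted p = 0.197), Dst of 0.53 (SE 0.29, edgeR adjusted p = 0.279) and Plec of 0.25 (SE 0.27, edgeR adjusted p = 0.587), the latter pair encoding plakins that tie the complex to keratin. The basal keratin Krt5 had 0 counts in 11 of 11 tumors, which allows up to 3 counts or 0.0884 to 0.226 CPM in each, Col17a1 had at most 13 counts and Krt14 at most 35.

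**Figure D5:**
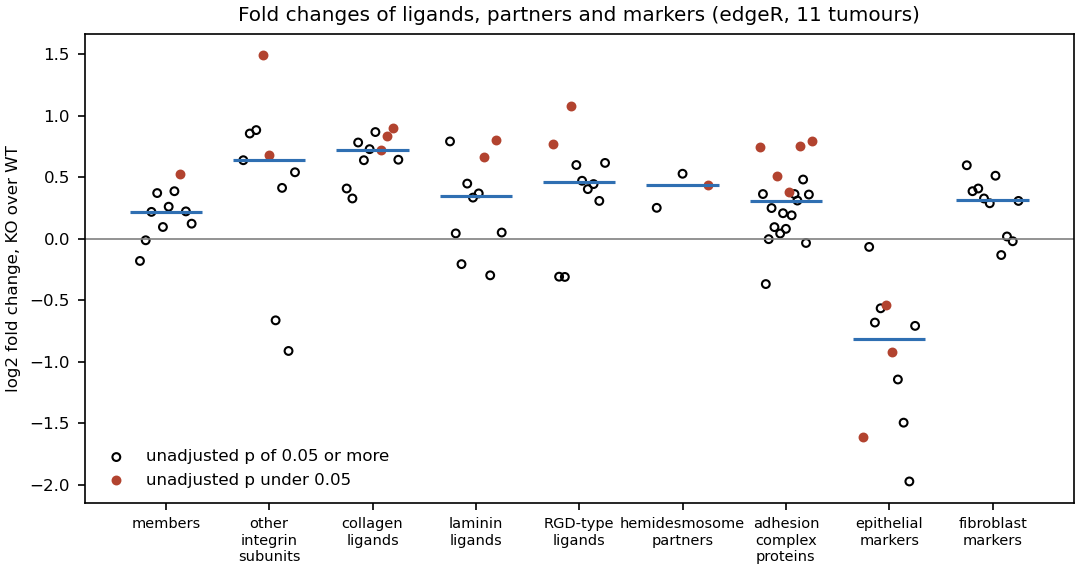
Log2 fold change (KO over WT, edgeR, 11 tumors) of each tested gene in the members, the ligand, partner and adhesion lists and the epithelial and fibroblast markers, with filled points for an unadjusted p under 0.05 and blue lines for the medians. The medians run from -0.81 for epithelial markers to 0.72 for collagens, with the members at 0.22.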

How the data were processed

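RNA from 11 tumors was sequenced as paired-end, strand-specific libraries. Per the labels and the study's methods, reads were trimmed with Trimmomatic, aligned to GRCm38 with HISAT2 2.1.0, and unique alignments were counted over exons with HTSeq 0.11.2. The authors deposited raw counts per gene and a normalized table, a signal that equals each count divided by 1 factor per tumor. The annotation used here was GENCODE M21 on GRCm38, and the strand setting of HTSeq is not given in the sources used here. Ensembl IDs were matched to symbols for 54165 of 54232 genes.

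Groups came from the titles. Letters were not treated as pairs. Counts were tested with edgeR 4.0.16 (R 4.3.3; TMM factors, filterByExpr, quasi-likelihood test, Benjamini-Hochberg adjustment over all tested genes, threshold 0.05), after a check on simulated counts. log2 CPM used a prior count of 2. Exon length is the union of a gene's exons. Likeness is Pearson's r of log2 CPM over tumors, and from each ligand or partner list the 3 genes with the smallest p were named. The gene most like Itga6 is not reported here. Alternatives were DESeq2 1.42.0, RLE factors, other filters, limma 3.58.1 on the normalized values (pseudocount 1), a replicate block, a ribosomal RNA (Gm42418, mt-Rnr1 and mt-Rnr2) term, a length offset and fits without single tumors. The p-values weigh the difference between KO and WT against the spread between animals. No 2 libraries agreed within sampling noise (lowest chi-square per degree of freedom 34.6). Members and lists were chosen with earlier results of these data known.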

Additional observations from a re-analysis of the deposited data

How the results depend on the processing

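The counts of members called higher or lower at an adjusted p under 0.05 were 0 in the fit of all tumors and in each of the 20 alternatives. Of 200 fold changes under alternatives, 177 kept their direction and 23 turned it, and 4 members (Itga5, Itgav, Itgb1 and Itgb5) kept it throughout. Leaving out 1 tumor at a time, log2 fold changes ran from -0.40 (without WT B) to 0.26 (without WT D) for Itga1, from -0.19 (without WT B) to 0.41 (without WT E) for Itga2 and from -0.074 (without WT B) to 0.29 (without WT E) for Itga6, and turned direction in each. The unadjusted call of Itgb1 ended without WT A or WT B, without any 1 of KO B to F, without WT A, B and C, and with the ribosomal RNA term. With that term the fold changes of Itga3 (-0.13), Itga6 (-0.26), Itga11 (-0.12) and Itgb4 (-0.13) turned, and without WT A, B and C those of Itga3 (-0.33), Itga6 (-0.48), Itga11 (-0.55) and Itgb4 (-0.46) turned. The length offset turned Itga6 (-0.051), no filter turned Itga2 (0.019), and limma on the deposited values turned Itga1 (0.19) and Itga2 (0.23). The cause was not tested.

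With the letter as a replicate block, Itga1 (0.19) and Itga2 (0.22) turned and no member gained or lost an adjusted call. Same-letter tumors of KO and WT deviated together with r from -0.135 to 0.118, and 1 of 5 KO tumors correlated best with its own letter, so the letters were not read as pairs. Over all tested genes the adjusted calls of edgeR were 3 higher and 0 lower, against 595 and 900 by DESeq2, 608 and 1248 without WT E, and 203 and 651 without WT D. With CPM not divided by length, or with the length of the longest coding transcript, 21 of 52 mean shares and ratios moved by less than 1 SD. Without length, Itga1 moved from 3.11% to 7.93% of the alpha pool in KO, Itgb5 per Itgav from 4.47 to 1.48 and Itgb1 per alpha pool from 1.49 to 0.835. Itgb4 per Itga6 moved from 0.508 to 0.264 in KO with the coding transcript. Itga6 moved from 17.8% to 27.7% of the alpha pool in KO and from 18.9% to 29.2% in WT with that length, a choice added after seeing the data. With 6 and 5 animals, the SE of the members ran from 0.15 (Itgb5) to 0.46 (Itga11).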
